A study of Mus musculus with 4 samples.

Results

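The genes of folate uptake and folate metabolism examined here are 8 of the 19938 mouse genes that the arrays measure through a probe set of their own: the folate receptors Folr1 and Folr2, the carriers Slc19a1 and Slc46a1, and the enzymes Shmt1, Shmt2, Mthfd2 and Tyms. They were picked by gene symbol. Of 28856 transcript clusters in all (the array's probe sets, each for a transcript), 9 are paired with 1 of these symbols alone, and the brightest of each gene, 8 in all, stood for it. Folr1 was selected on its difference of at least 2-fold between CORIN+ and CORIN- cells of both the cultured and the fetal pair, so those differences are a description of how it was chosen and support nothing. The other 7 genes were set beside it by role, with earlier values of these arrays known.

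Each of 4 sorted populations was hybridised to 1 array. The first pair came from a 129SVEV ESC line with GFP knocked in at the Lmx1a locus: after floating aggregate culture with SHH and FGF8b, CORIN+LMX1A::GFP+ cells (called cultured CORIN+ below) were sorted on day 9 from CORIN-LMX1A::GFP+ cells (cultured CORIN-). The second pair, CORIN+ and CORIN- cells, was sorted from the ventral mesencephalon (VM) of C57BL/6N fetuses at E11.5 on CORIN alone, with no GFP gate, and these are called fetal CORIN+ and fetal CORIN-. The cultured cells come from a single knock-in line, and the cultured and fetal populations differ at once in culture, strain and gate, which cannot be told apart. CORIN is a membrane protease of the floor plate, and the homeodomain factor LMX1A marks progenitors of midbrain dopaminergic neurons.

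Folate is a vitamin that carries single carbon units for the synthesis of thymidylate and purines and for the remethylation of homocysteine to methionine. Cells take it up in 2 ways. Folate receptors are held in the outer membrane by a glycolipid anchor and bring bound folate in by endocytosis, and carriers of the solute carrier family move it across membranes directly. Inside the cell, serine hydroxymethyltransferases load a carbon from serine onto tetrahydrofolate, one enzyme in the cytosol and one in mitochondria, and the neural tube is known for its need of folate during closure.

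The values are log2 signals as the authors deposited them, and a log2 fold is the difference of the log2 signals of 2 arrays, so that a log2 fold of 1 is 2-fold. No population has a replicate, so the values carry neither an error nor a p-value, and the size of a fold is set here beside the same count over all 19938 genes. How widely the genes scatter in a comparison was measured by the median absolute deviation of their log2 folds, scaled to a standard deviation. It was 0.157 in culture, 0.177 in the fetus, 0.276 between the CORIN+ populations of both sources and 0.287 between their CORIN- populations. The median log2 fold of all genes lay between -0.040 and 0.022 in the 4 comparisons. Signals of different genes come from different probes and are not set against each other.

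Folr1, the folate receptor of epithelia and of the neural tube, spanned 2.46 log2 units across the arrays, the most among the 8 genes. That span includes the CORIN differences on which Folr1 was chosen, so nothing is read from its place among the 8. Its log2 signal was 10.97 in cultured CORIN+ cells and 9.96 in cultured CORIN- cells. Among fetal cells it was 9.79 with CORIN and 8.51 without. The cultured CORIN+ population was the highest, the fetal CORIN- population was the lowest, and the cultured CORIN- and fetal CORIN+ populations lay close together between them. These signals stood at the 87.4th, 74.6th, 73.2nd and 57.1st percentile of all clusters of their own array, in the same order of populations.

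The log2 fold of Folr1 between cultured CORIN+ and cultured CORIN- cells was 1.01, or 2.02-fold, the 70th highest of 19938 genes. It lay at the edge of the 2-fold rule by which it was chosen. The 3 genes of the cultured pair just inside that rule were 1700028P14Rik at 2.02-fold, Me3 at 2.01-fold and Ppfibp2 at 2.003-fold, and Slc1a3, Rassf9 and Ubxn11 lay just outside it at 1.999-fold, 1.995-fold and 1.99-fold. In the fetus the log2 fold of Folr1 was 1.28, or 2.43-fold, the 423rd highest. Genes at least 2-fold higher in both CORIN comparisons numbered 16. Between the sources Folr1 was 2.27-fold higher in cultured CORIN+ cells than in fetal CORIN+ cells and 2.73-fold higher in cultured CORIN- cells than in fetal CORIN- cells. Floor plate genes were also higher in cultured cells, with a median log2 fold of 1.16 and 6 of 10 at least 2-fold higher among CORIN+ and 1.39 and 8 of 10 among CORIN- populations. Neuronal genes were lower, with medians of -1.56 and -1.64 and 10 of 13 at least 2-fold lower in each, and dividing-cell genes had medians of 0.082 and 0.42. Of all genes, 2.98% were at least 2-fold higher and 4.37% lower among CORIN+, and 4.54% and 3.52% among CORIN- populations. Other lists differed between the sources too, some by more. Among CORIN+ populations the medians were -3.81 for macrophage, -2.86 for mesenchymal, -2.01 for erythroid and 0.14 for pluripotent cell genes. Among CORIN- populations they were -0.12, 0.26, -1.31 and 1.54, in the same order. The part of these lists in the differences between sources, of Folr1 and of the genes below, was not tested.

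Folr2, a second receptor known from macrophages and placenta, was ordered differently. Its log2 signal was 8.26 in cultured CORIN+ cells and 7.72 in cultured CORIN- cells. The fetal CORIN+ value was 8.70 and the fetal CORIN- value 7.14. Here the fetal CORIN+ population was the highest and both CORIN- populations were the lowest. The log2 fold was 0.53 in culture, or 1.45-fold, and 1.56 in the fetus, or 2.95-fold, the 276th highest of all genes. The fetal log2 fold exceeded the cultured one by 1.03, a difference that was not tested. Between the sources the direction depended on the sort: the log2 fold of Folr2 was -0.44 in cultured over fetal CORIN+ cells and 0.59 in cultured over fetal CORIN- cells. Folr2 was thus higher in CORIN+ than in CORIN- cells of either source, by less than 2-fold in culture. For Folr1 the same direction follows from how it was chosen. Of these receptors, only Folr1 was higher in cultured cells under both sorts.

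**Figure D1:**
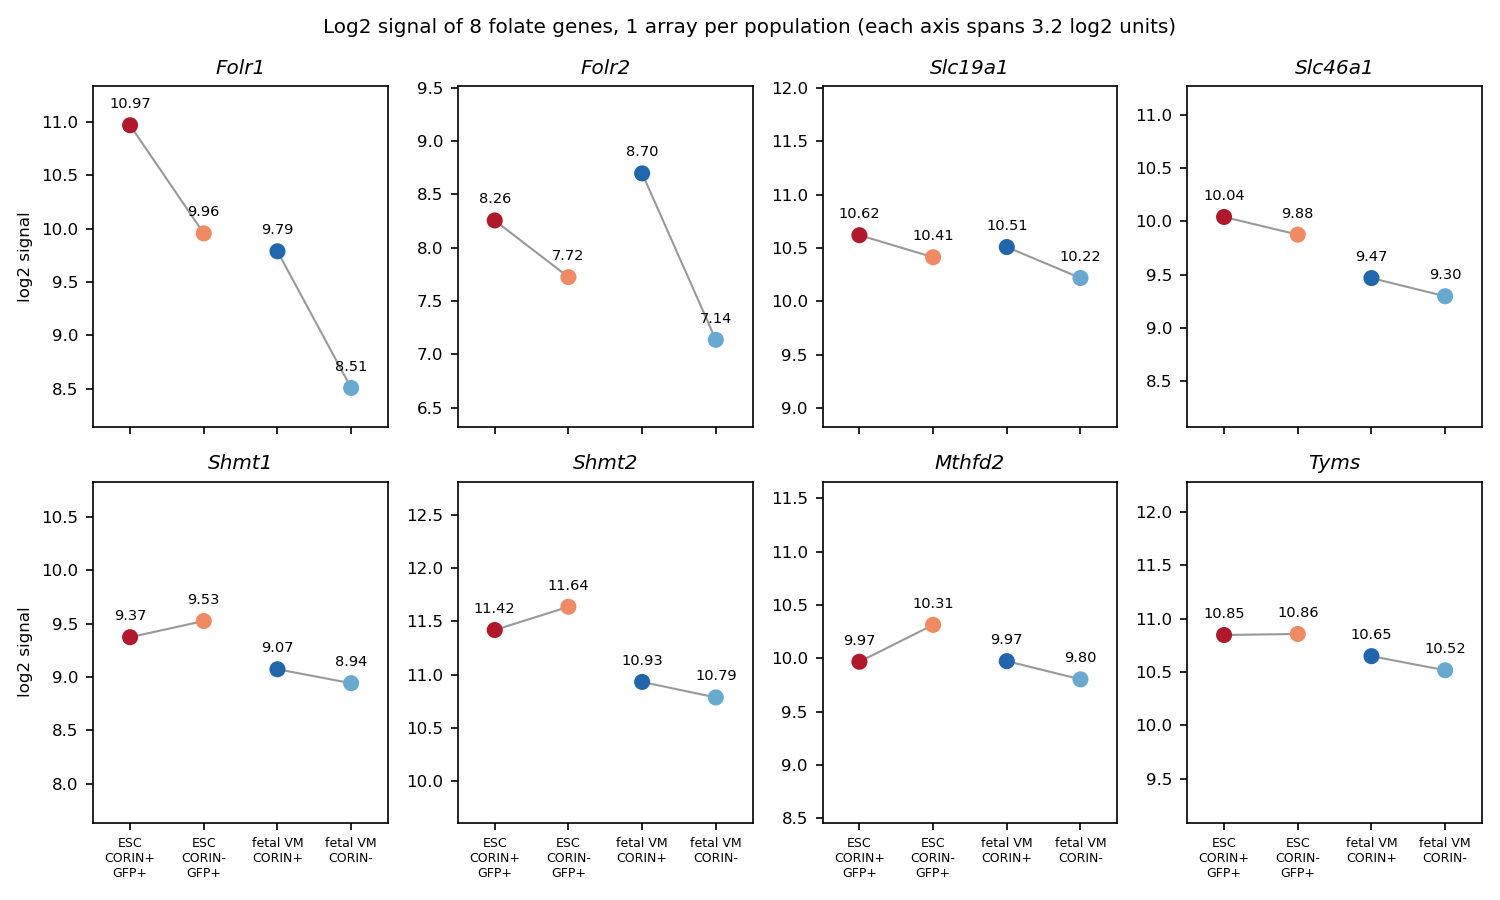
Log2 signal of each of the 8 genes in the 4 populations, 1 point per array, with grey lines joining the CORIN+ and CORIN- populations of 1 source (ESC marks the cultured cells, GFP+ stands for LMX1A::GFP+, VM for ventral mesencephalon). Folr1 is highest at 10.97 in cultured CORIN+ cells and Folr2 at 8.70 in fetal CORIN+ cells, while the carriers and enzymes lie on flatter lines.

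The fetal CORIN+ array also carried transcripts of other cell types, and their part in the receptor values was not tested. A macrophage list of 20 genes had a median log2 signal of 6.33 in cultured CORIN+ cells and 6.39 in cultured CORIN- cells, against 10.45 in fetal CORIN+ and 6.50 in fetal CORIN- cells. In the fetus 17 of the 20 genes were at least 2-fold higher in CORIN+ cells, where 3.16% of all genes were. Their list had a median log2 fold of 3.59, with Ly86 at 5.58 at the top and Cd163 at -0.32 at the bottom. In culture none of the 20 was 2-fold apart, and their median log2 fold was -0.016, between Pf4 at -0.54 and Tyrobp at 0.12. Of all genes, 0.376% were at least 2-fold higher in culture and 0.522% lower. The log2 of the summed signal of the list was 11.24 and 11.26 in the cultured CORIN+ and CORIN- populations, 14.83 in fetal CORIN+ and 11.25 in fetal CORIN- cells. In sorted bulk RNA, fewer cells of a type and less RNA per cell cannot be told apart.

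Mesenchymal markers moved with the fetal sort as well. In fetal CORIN+ over fetal CORIN- cells all 12 were higher by 2-fold or more, where 3.16% of all genes were. Their median log2 fold was 2.19, between Col3a1 at 1.70 and Osr1 at 2.83. In culture their median was -0.81, with Foxc2 lowest at -1.69 and Twist1 highest at 0.12. Of the 12, 4 were at least 2-fold lower, where 0.522% of all genes were. Among the 9 erythroid genes of the fetal pair, 5 passed 2-fold upwards and 1 downwards, where 3.16% and 0.456% of all genes did. They lay between Tal1 at -1.18 and Hbb-bh1 at 2.46, and none was 2-fold apart in culture. Their median log2 signal was 9.12 in fetal CORIN+ and 8.61 in fetal CORIN- cells. In cultured CORIN+ and CORIN- cells it was 7.02 and 6.83, so the list was higher on both fetal arrays. Corin itself, the target of the antibody, was 3.90-fold higher in cultured CORIN+ than in cultured CORIN- cells and 17.7-fold higher in fetal CORIN+ than in fetal CORIN- cells. The 10 floor plate genes include Corin, the highest of them in both pairs, whose direction follows from the sort. Their median log2 fold was 0.50 in culture and 0.64 in the fetus, with Chrd at the bottom at -0.18 and 0.12. The 13 neuronal genes were lower in CORIN+ cells of both sources, at a median of -0.62 in culture, with Elavl3 lowest at -1.02, and -0.52 in the fetus, with Syt1 lowest at -1.11. Map2 was their highest gene in both pairs, at -0.096 and -0.26. The median of each marker list kept its sign in both CORIN pairs under the other scalings tried. For the macrophage list in culture this was barely so: after quantile normalization its median was -0.0005, with 9 genes above 0 and 10 below.

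**Figure D2:**
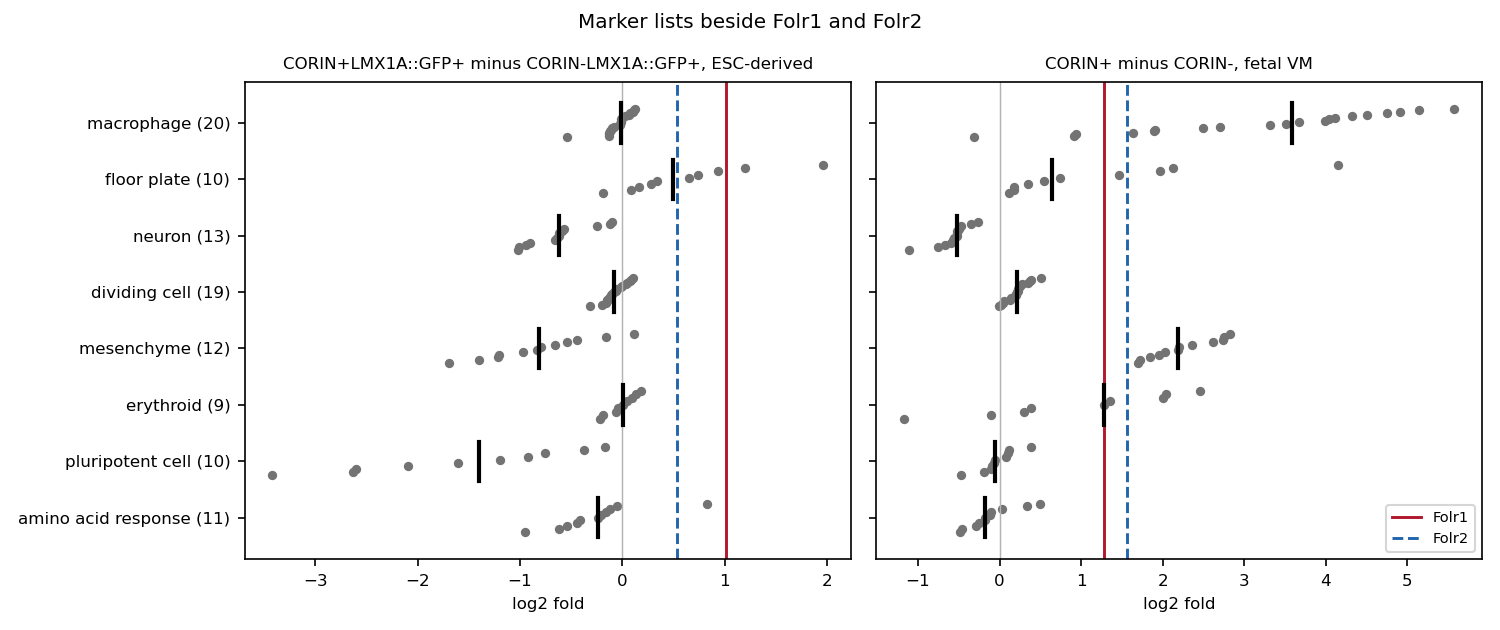
Log2 fold of CORIN+ over CORIN- cells (x axis) for each gene of 8 marker lists (rows, with the number of genes measured), cultured on the left and fetal on the right. Black bars are list medians, the red solid line is Folr1 and the blue dashed line is Folr2; the macrophage median is -0.016 in culture and 3.59 in the fetus.

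The genomic setting of the receptors is given for Folr2, since its 2 annotated starts lie far apart and the data cannot say which was used. Folr1 and Folr2 are neighbours on mouse chromosome 7. Promoter windows from RefSeq (assembly GRCm38.p6), 300 bases around an annotated start, were found for 7 of the 8 genes and hold 9 entries, 2 of them for Folr2 and 2 for Slc19a1, while Folr1 had no entry. Capitals mark the motifs searched on both strands: GGAANNGAA, a composite of PU.1 and IRF sites, which are bound by factors of myeloid cells; TGATGNAA, an amino acid response element; GCGCATGCG, the NRF1 site; CCAAT; the GC box GGGCGG; and TGTTTNC, the FOXA site. The windows of Folr2 lie on the minus strand at chr7:101857141-101857440 for the first start and chr7:101845282-101845581 for the second, printed 5′ to 3′.
Folr2, first start: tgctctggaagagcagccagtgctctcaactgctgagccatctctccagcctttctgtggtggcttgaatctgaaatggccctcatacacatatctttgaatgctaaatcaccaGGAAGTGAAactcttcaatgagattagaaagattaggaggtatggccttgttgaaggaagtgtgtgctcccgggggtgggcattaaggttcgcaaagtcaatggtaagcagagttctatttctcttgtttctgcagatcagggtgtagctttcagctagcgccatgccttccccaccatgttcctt
Folr2, second start: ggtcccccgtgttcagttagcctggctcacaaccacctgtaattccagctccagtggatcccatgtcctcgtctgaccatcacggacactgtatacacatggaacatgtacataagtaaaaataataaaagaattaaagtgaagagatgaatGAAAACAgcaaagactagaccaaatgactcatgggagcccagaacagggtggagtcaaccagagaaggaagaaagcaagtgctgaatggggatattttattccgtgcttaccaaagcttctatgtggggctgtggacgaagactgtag

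The window at the first start of Folr2 holds the composite GGAANNGAA as GGAAGTGAA, and the window at the second start does not. These letters were chosen after the sequence had been read, and 8.24% of all 32851 promoter windows hold a match to them. The second window holds a match to the FOXA letters on the opposite strand, as do 20.5% of all windows on either strand. A match is a description of the letters and not a site in use.

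Neither carrier was 2-fold apart in any comparison. Slc19a1, the reduced folate carrier of most cells, had a log2 signal of 10.62 in cultured CORIN+ cells and 10.41 in cultured CORIN- cells. Fetal CORIN+ and CORIN- cells were at 10.51 and 10.22. Its log2 folds were 0.21 in culture and 0.29 in the fetus, 0.11 between the CORIN+ and 0.20 between the CORIN- populations of both sources. A second, dimmer cluster of Slc19a1 gave 0.18 and 0.15 for the CORIN pairs and 0.19 and 0.16 between the sources. In sign, both clusters were higher in CORIN+ cells and in cultured cells, but they were read on the same arrays. Between the sources the folds of both clusters were under the scatter of all genes, as was that of the dimmer cluster in the fetus. Folds at least as large in size as that of the brighter cluster were found for 65.9% of all genes among CORIN+ and 50.1% among CORIN- populations of both sources.

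Slc46a1, the proton-coupled folate transporter that also takes up folate in the intestine, differed more between the sources than between the sorts. Signals on the log2 scale were 10.04 and 9.88 in cultured CORIN+ and cultured CORIN- cells, and 9.47 and 9.30 in fetal CORIN+ and CORIN- cells. Both cultured populations were above both fetal ones. The log2 fold was 0.17 in each CORIN pair, against 0.57 between the CORIN+ and 0.58 between the CORIN- populations of both sources, all under 2-fold. Genes in general also scattered more between the sources. There, 16.4% of all genes among CORIN+ and 17.8% among CORIN- populations lay at least as far from 0. In the CORIN pairs the share was 32.1% in culture and 39.6% in the fetus.

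All 4 enzymes differed little between the sorts. In sign, each was lower in CORIN+ than in CORIN- cells among cultured cells, Tyms by only 0.01 on the log2 scale, and each was higher in CORIN+ than in CORIN- cells of the fetal VM. The largest of these differences was 1.27-fold, for Mthfd2 in culture, where 10.3% of all genes lay at least as far from 0, against 22.3% for Shmt2, 35.6% for Shmt1 and 94.8% for Tyms. In the fetus the log2 folds of all 4 were under the scatter of all genes, 0.177, and between 39.5% of all genes, for Mthfd2, and 49.5%, for Shmt1, lay at least as far from 0. Mthfd2, the mitochondrial dehydrogenase and cyclohydrolase of dividing and embryonic cells, had the lowest log2 fold of the 8 genes in culture. Its log2 signal was 9.97 in cultured CORIN+ cells and 10.31 in cultured CORIN- cells, and 9.97 in fetal CORIN+ and 9.80 in fetal CORIN- cells. The log2 fold was -0.35 in culture and 0.17 in the fetus. Only the cultured CORIN- population stood above the other 3, and the 2 CORIN+ populations differed by -0.01.

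Shmt2, the mitochondrial serine hydroxymethyltransferase, had a log2 signal of 11.42 in cultured CORIN+ cells and 11.64 in cultured CORIN- cells. Fetal CORIN+ and CORIN- cells were at 10.93 and 10.79. Both cultured populations were above both fetal ones. The log2 fold was -0.22 in culture and 0.15 in the fetus. Between the sources it was 0.49 for the CORIN+ populations and 0.85, or 1.80-fold, for the CORIN- populations, which after Folr1 was the highest log2 fold of an examined gene there.

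Shmt1, its cytosolic counterpart, was at 9.37 in cultured CORIN+ cells and 9.53 in cultured CORIN- cells, and at 9.07 in fetal CORIN+ and 8.94 in fetal CORIN- cells. The log2 fold was -0.15 in culture and 0.13 in the fetus. Tyms, the thymidylate synthase that uses folate to make a DNA precursor, was the flattest gene, at 10.85 and 10.86 in cultured CORIN+ and cultured CORIN- cells and 10.65 and 10.52 in fetal CORIN+ and CORIN- cells. Its log2 fold was -0.01 in culture and 0.13 in the fetus. Shmt1 and Tyms were again higher in cultured than in fetal cells under both sorts. On the log2 scale this was by 0.30 and 0.20 among CORIN+ and 0.58 and 0.34 among CORIN- populations. At least as far from 0 lay 34.3% and 47.9% of all genes among CORIN+ and 17.6% and 31.9% among CORIN- populations. The fold of Tyms among CORIN+ populations was under the scatter of all genes, 0.276.

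Enzymes of this pathway are known to be abundant in dividing cells, and 19 dividing-cell genes were measured. Their median log2 fold was -0.080 in culture, with 14 of 19 below 0, and 0.22 in the fetus, with 18 of 19 above 0. Their range was Cdc6 at -0.31 to Top2a at 0.10 in culture and Mcm2 at -0.005 to Cdk1 at 0.51 in the fetus, and none was 2-fold apart in either. The list median had the enzymes' pair of signs. Its cultured value was under the scatter of all genes there, 0.157, and the enzymes' fetal folds were under 0.177. The share of all genes above 0 was not counted, so nothing is read from these signs. Pluripotent cell markers also separated the cultured populations. Their median log2 signal was 6.98 in cultured CORIN+ and 8.39 in cultured CORIN- cells, against 6.81 and 6.80 in fetal CORIN+ and CORIN- cells. All 10 were lower in cultured CORIN+ cells, with Dppa5a lowest at -3.42 and Klf4 highest at -0.17. Of the 10, 6 were at least 2-fold lower, where 0.522% of all genes were. In the fetus their median was -0.057, between Esrrb at -0.47 and Klf4 at 0.39. The cultured CORIN- population had the highest median of these markers, although Esrrb was highest in fetal CORIN- cells, and it was also the highest for Shmt1, Shmt2, Mthfd2 and, by 0.01, Tyms. The part of either list in the enzyme values was not tested.

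Genes of the amino acid response, targets of ATF4 with which Mthfd2 and Shmt2 are often grouped in mammalian cells, had a median log2 fold of -0.23 in culture, with 10 of 11 below 0, Chac1 lowest at -0.95 and Vldlr highest at 0.83. In the fetus the median was -0.18, with 8 of 11 below 0, Chac1 lowest at -0.49 and Slc7a11 highest at 0.50. The sign of the list median matched that of the enzymes in culture and not in the fetus, where 8 of 11 genes were below 0. The others had the enzymes' pair of signs: Asns at -0.42 in culture and 0.34 in the fetus, Slc7a11 at -0.54 and 0.50, and Atf5 at -0.23 and 0.03. Asns and Atf5 were named after their values were seen, and the fetal fold of Atf5 was under the scatter of all genes, 0.177. The share of all genes above 0 was not counted, so nothing is read from these signs. The part of this list in the enzyme values was not tested. The promoter windows of both mitochondrial enzymes are printed because they are often grouped with this response. They are given from the minus strand at chr10:127522395-127522694 for Shmt2 and chr6:83317555-83317854 for Mthfd2 of GRCm38.p6, 5′ to 3′, with the same motifs in capitals.
Shmt2: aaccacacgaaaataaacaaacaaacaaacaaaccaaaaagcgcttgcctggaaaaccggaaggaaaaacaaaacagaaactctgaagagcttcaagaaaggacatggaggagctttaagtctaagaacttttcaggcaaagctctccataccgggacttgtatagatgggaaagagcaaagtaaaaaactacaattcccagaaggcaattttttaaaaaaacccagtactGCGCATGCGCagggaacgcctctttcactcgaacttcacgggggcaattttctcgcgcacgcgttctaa
Mthfd2: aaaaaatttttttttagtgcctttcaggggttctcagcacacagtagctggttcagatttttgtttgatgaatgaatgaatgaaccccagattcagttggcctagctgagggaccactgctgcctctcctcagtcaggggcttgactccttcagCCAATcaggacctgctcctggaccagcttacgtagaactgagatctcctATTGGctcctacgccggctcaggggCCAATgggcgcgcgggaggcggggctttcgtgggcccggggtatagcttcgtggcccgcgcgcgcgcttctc

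The Shmt2 window holds the NRF1 letters, matched on both strands over 1 stretch of 10 bases, and was the only one of the 9 windows with them. NRF1 is a factor of genes for mitochondrial proteins, and its letters occur in 1.75% of all windows. The Mthfd2 window holds 3 CCAAT boxes, 1 of them on the opposite strand, and 37.4% of all windows hold at least 1. No match to TGATGNAA was found in any of the 9 windows, against 3.97% of all windows, which says only that those letters are not in these 300 bases. The GC box was in 4 of the 9 windows and in 35.7% of all.

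Counted over the 8 genes, 1 was at least 2-fold higher in cultured CORIN+ than in cultured CORIN- cells, Folr1, where 0.376% of all genes were, and none was 2-fold lower, where 0.522% of all genes were. As Folr1 was chosen by this contrast, nothing is read from the count. In the fetus 2 genes, Folr1 and Folr2, were at least 2-fold higher in CORIN+ cells, against 3.16% of all genes, and none was 2-fold lower, against 0.456%. Between the CORIN+ populations of both sources 1 gene, Folr1, was at least 2-fold higher in cultured cells, where 2.98% of all genes were, and none was 2-fold lower, where 4.37% were. The CORIN- populations gave the same counts of 1 and 0, beside 4.54% of all genes higher and 3.52% lower. The median log2 fold of the 8 genes was 0.078 in culture, 0.17 in the fetus, 0.25 between the CORIN+ and 0.58 between the CORIN- populations of both sources. All 8 were above 0 in the fetus and between the CORIN- populations, 4 of 8 in culture and 6 of 8 between the CORIN+ populations. In the fetus the folds of Slc46a1 and the 4 enzymes were under the scatter of all genes, 0.177. Between the CORIN- populations that of Slc19a1 was under the scatter of 0.287. The share of all genes above 0 was not counted, so nothing is read from these signs. The comparisons between sources use the same 4 arrays as those between sorts.

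**Figure D3:**
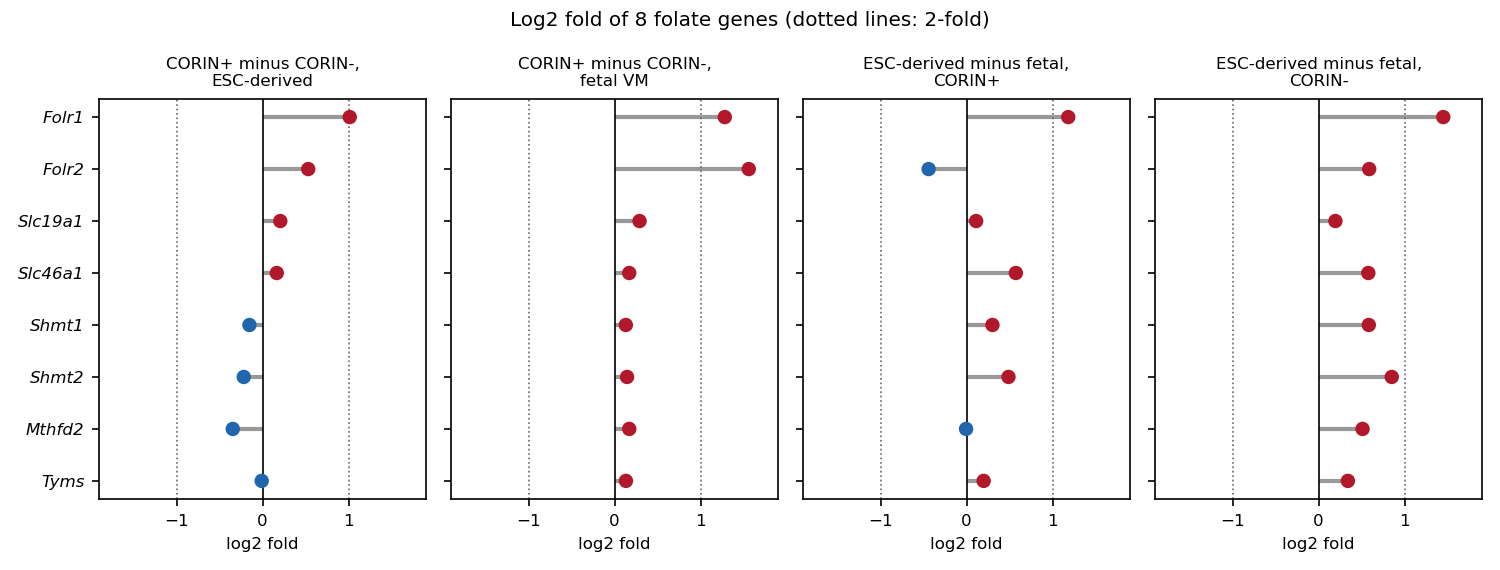
Log2 fold of each of the 8 genes (x axis) in the 4 comparisons, with dotted lines at 2-fold; red points are above 0 and blue points below. Folr1 is past 2-fold in all 4 panels, Folr2 in the fetus at 1.56, and the 4 enzymes lie left of 0 in culture and right of 0 in the fetus.

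The wider pathway was read from lists by role that hold 52 genes, of which 47 were measured and 5 were not analysed here. Apart from the 8 genes above, 39 were measured. None of the 39 was at least 2-fold higher or lower in either CORIN comparison, beside 0.376% of all genes higher and 0.522% lower in culture and 3.16% higher and 0.456% lower in the fetus, shares at which a list of this length would hold few genes or none, and their median log2 fold was -0.028 in culture and 0.007 in the fetus, the fetal value at -0.0085 after quantile normalization. Between the CORIN+ populations of both sources 3 were higher and 1 lower by at least 2-fold in cultured cells, where 2.98% and 4.37% of all genes were. Between the CORIN- populations 4 were higher and 1 lower, where 4.54% and 3.52% of all genes were. The medians were 0.070 and 0.11, and 0.24 and 0.42 when only genes above the median signal were kept.

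Among the receptors and their endocytic partners, Lrp2, the megalin receptor of the neuroepithelium that binds several carriers of vitamins, went the other way from Folr1 in culture. Lrp2 had a log2 signal of 9.08 in cultured CORIN+ cells and 10.08 in cultured CORIN- cells, and 8.98 and 9.11 in fetal CORIN+ and CORIN- cells. The log2 fold of -0.999 in culture lay just short of 2-fold, at 1.999-fold, and was the lowest of the 47 pathway genes in that comparison. Only the cultured CORIN- population was high. Cubn, the partner of megalin, differed by source instead, at 8.50 and 8.42 in the cultured CORIN+ and CORIN- populations and 7.19 and 7.31 in the fetal CORIN+ and CORIN- populations, a log2 fold of 1.31 and 1.11. Izumo1r, formerly named as a folate receptor but an egg protein that binds sperm, was between 7.02 and 7.08 in all 4 populations.

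Among the carriers and exporters no gene was 2-fold apart in any comparison. The largest absolute log2 fold was that of Abcc1, an exporter, at 0.73 between cultured CORIN- and fetal CORIN- cells. Of the 3 genes of folate retention, Ggh is the hydrolase that removes the glutamate tail and so lets folate leave the cell. It was ordered over the populations as Folr1 was, an order shared by Slc46a1, the exporter Abcg2, Mtr and Mthfd1l. The values of Ggh follow. Its log2 signal was 9.78 in cultured CORIN+ cells and 8.89 in cultured CORIN- cells, and 8.78 and 8.47 in fetal CORIN+ and CORIN- cells. The cultured CORIN+ population was the highest and the fetal CORIN- population the lowest. The log2 fold of Ggh was 0.89 in culture, 0.31 in the fetus and 1.01 between the CORIN+ populations of both sources.

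The 9 cytosolic enzymes measured, Shmt1 and Tyms among them, had a median log2 fold of -0.066 in culture, with 6 of 9 below 0, and 0.13 in the fetus, with 8 of 9 above 0. Mtr, the methionine synthase, and Mtrr, which reactivates it, were past 2-fold only between the CORIN- populations of both sources. Mtr was at 9.96 and 9.91 in the cultured CORIN+ and CORIN- populations and at 9.24 and 8.87 in the fetal ones, and its log2 fold between the CORIN- populations was 1.04. Mtrr was at 9.67 and 9.78 in the cultured and 8.95 and 8.77 in the fetal CORIN+ and CORIN- populations, and its log2 fold there was 1.01. Both were also higher in cultured CORIN+ than in fetal CORIN+ cells, by a log2 fold of 0.72 each.

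Among the 12 mitochondrial enzymes, 1 gene past 2-fold between the sources was higher and 1 was lower in cultured cells. Mthfd1l, which releases formate from mitochondria, was at 10.13 and 10.10 in cultured CORIN+ and CORIN- cells, against 8.89 and 8.56 in fetal CORIN+ and CORIN- cells. Its log2 fold of cultured over fetal cells was 1.24 for the CORIN+ and 1.54 for the CORIN- populations. Aldh1l2, which oxidises the same carbon unit to carbon dioxide, was at 7.65 and 8.30 in cultured CORIN+ and CORIN- cells, against 8.84 and 9.80 in fetal CORIN+ and CORIN- cells. Its log2 fold was -1.19 for the CORIN+ and -1.50 for the CORIN- populations. Aldh1l2 was also lower in CORIN+ than in CORIN- cells of both sources, by a log2 fold of -0.65 in culture and -0.96 in the fetus. The median of the 12 enzymes was -0.083 and 0.024 in these pairs, each with the other sign when only genes above the median signal were kept.

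Among the methionine cycle and transsulfuration genes none was 2-fold apart. The largest absolute log2 fold was that of Cth, which makes cysteine, at 0.94 between the CORIN- populations of both sources, and its log2 fold in culture was -0.80. Its log2 signal was 8.27 in cultured CORIN+ cells and 9.07 in cultured CORIN- cells, and 8.14 and 8.13 in fetal CORIN+ and CORIN- cells, so the cultured CORIN- population stood alone, as for Lrp2. Of the 3 serine synthesis genes, Phgdh, the first enzyme of the route, had the largest absolute log2 fold. It was lower in cultured cells, with a log2 fold of -0.70 for the CORIN+ and -0.64 for the CORIN- populations. Serine is the carbon donor of Shmt1 and Shmt2, which were higher in cultured cells by less than 2-fold, a difference that was not tested.

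**Figure D4:**
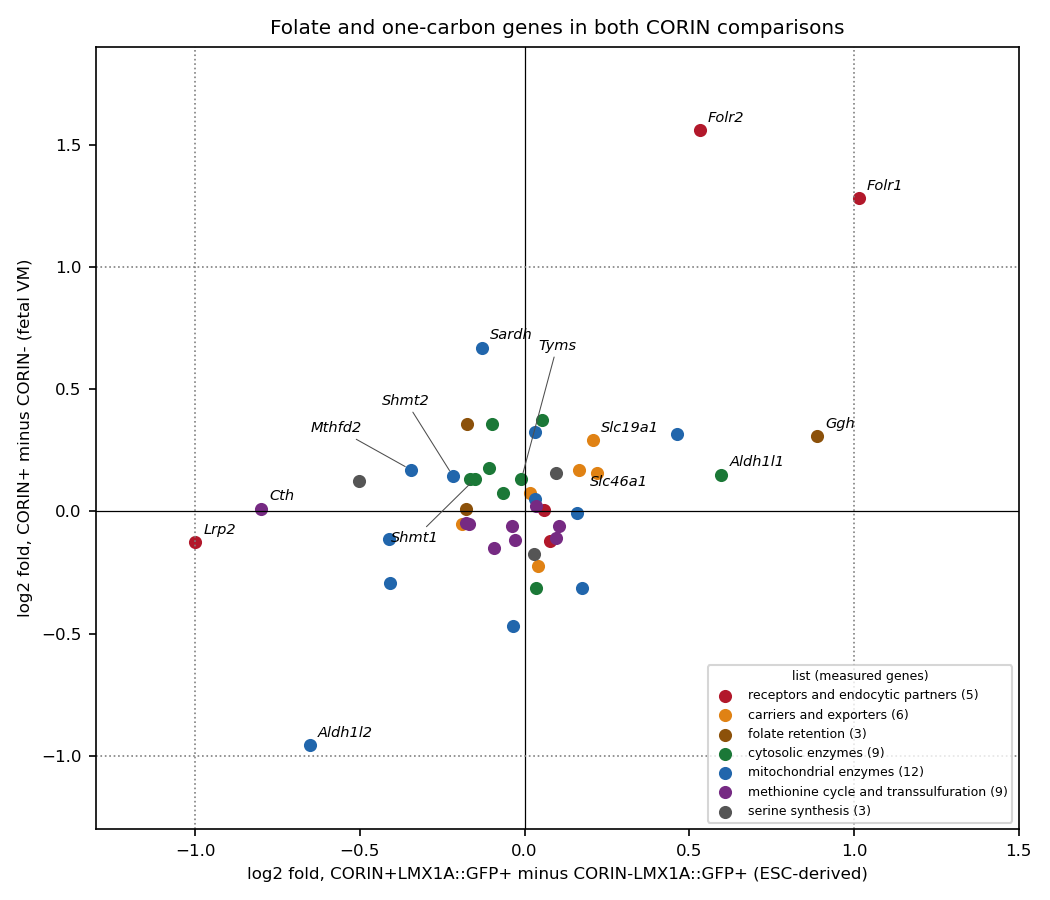
Log2 fold of CORIN+ over CORIN- cells for the 47 measured pathway genes, cultured on the x axis and fetal on the y axis, coloured by list, with dotted lines at 2-fold. Folr1 and Folr2 are alone above 2-fold in the fetus, Folr1 alone is above it in culture, and Lrp2 lies at -0.999 on the x axis.

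The genes nearest to each receptor in pattern were found by the root mean square (RMS) difference of the 4 log2 signals, after each gene was centred on its own mean. With 4 arrays this measure describes a shape only, over 4 points that share their source in pairs. Nearest to Folr1 were St3gal6 at an RMS difference of 0.083, P4ha3 at 0.097, Pon2 at 0.12, Dkk3 at 0.12 and Prss23 at 0.14. St3gal6, which adds sialic acid, was at 10.38 and 9.26 in cultured CORIN+ and CORIN- cells and 8.96 and 7.77 in fetal CORIN+ and CORIN- cells. P4ha3 is a collagen prolyl hydroxylase, Pon2 a paraoxonase, Dkk3 a secreted relative of the dickkopf Wnt inhibitors and Prss23 a secreted serine protease.

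Nearest to Folr2 were Msx1 at an RMS difference of 0.072, Nbl1 at 0.091, Col4a2 and Timp3 at 0.099 each and Cthrc1 at 0.10. Msx1, a homeobox factor of midbrain progenitors and of mesenchyme, was at 9.20 and 8.76 in cultured CORIN+ and CORIN- cells and 9.84 and 8.21 in fetal CORIN+ and CORIN- cells. Nbl1 is a secreted BMP antagonist, Col4a2 a basement membrane collagen, Timp3 a matrix protease inhibitor and Cthrc1 a secreted collagen-associated protein. Folr1 and Folr2 differed from each other by an RMS difference of 0.65, which placed Folr2 1729th among the 19937 other genes in nearness to Folr1.

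**Figure D5:**
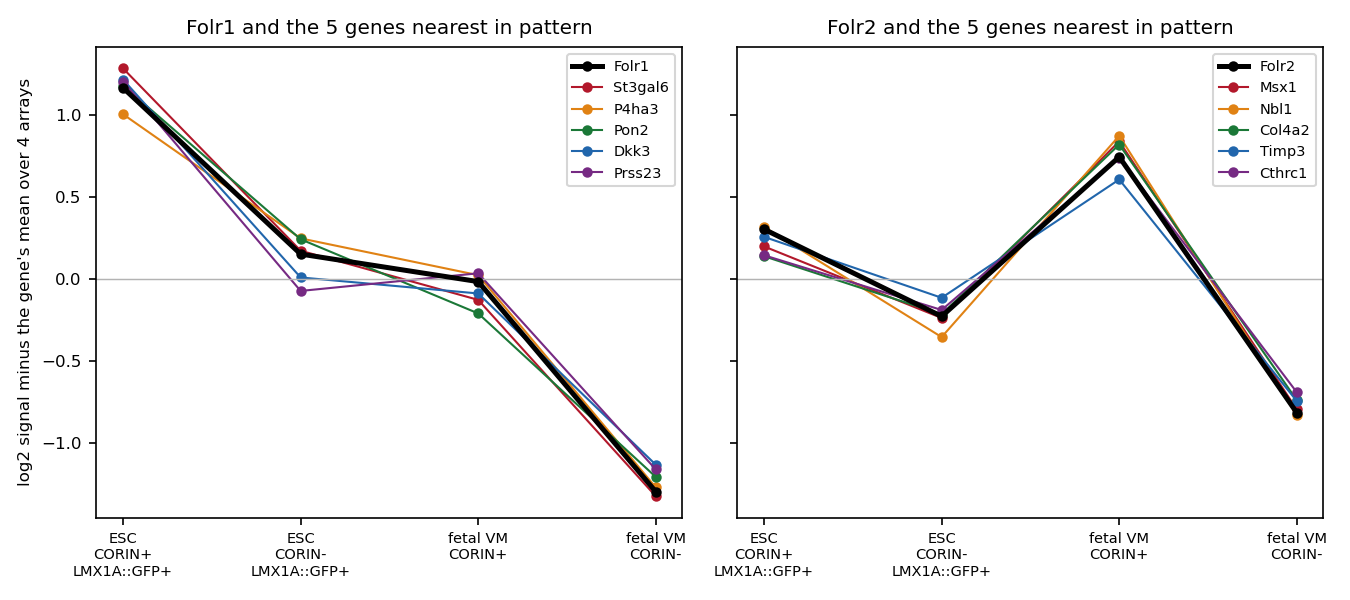
Log2 signal minus the gene's own mean over the 4 arrays (y axis) in the 4 populations (x axis), for Folr1 on the left and Folr2 on the right, each in black with its 5 nearest genes in colour. Folr1 and its neighbours are highest in cultured CORIN+ cells, and Folr2 and its neighbours in fetal CORIN+ cells.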

How the data were processed

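RNA of the sorted cells went through a whole-transcript labelling kit onto Affymetrix mouse arrays, 1 per population. The authors deposited log2 signals for 28856 transcript clusters. They name GeneSpring; for summarization, normalization between arrays and background treatment, the method is not given in the sources used here. The platform annotation pairs 21789 clusters with 1 symbol, and 21698 of these symbols were updated through the gene identifier to RefSeq names of GRCm38.p6, which gave 19938 genes. The brightest cluster stood for a gene. Log2 folds were differences of 2 arrays, with no test, and the single array per population limits the precision. Named were the 8 genes, pathway genes at least 2-fold apart or else the furthest of each list, the 5 genes nearest each receptor, and the highest and lowest of each marker list. Lrp2, Izumo1r, Abcg2, Asns and Atf5 were named after their values were seen. Genes, lists and rules were chosen with earlier results of these data known. Alternatives were quantile normalization, centred folds, 32 added to linear signals, the mean over clusters, a filter on dim genes, and thresholds of 1.5-fold and 3-fold; their use on marker lists was added after the data were seen. Python 3.11.15, numpy 2.4.6 and pandas 2.3.3 were used.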

Additional observations from a re-analysis of the deposited data

Results flagged for a closer look

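The 4 enzymes had log2 folds of opposite sign in culture and in the fetus, below 0 in cultured CORIN+ over CORIN- cells and above 0 in fetal CORIN+ over CORIN- cells. The fetal minus the cultured log2 fold was 0.28 for Shmt1, 0.36 for Shmt2, 0.52 for Mthfd2 and 0.14 for Tyms. The fetal log2 folds lay under the scatter of all genes there, 0.177, and between 39.5% and 49.5% of all genes were at least as far from 0. With 1 array per population the difference was not tested.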

How the results depend on the processing

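No fold of the 8 genes changed sign under any alternative, and 127 recomputed folds moved by less than the scaled median absolute deviation of their comparison. The 1 that moved by more was Folr2 in the fetus, at 1.37 with 32 added to the linear signals. Part of this was fixed in advance. Only Slc19a1 has a second cluster, so the mean over clusters left the folds of the other genes unchanged. Centring subtracted the same value from all folds of a comparison, the largest in size being -0.037, in the fetus. The smallest scaled median absolute deviation was 0.157, in culture, so centring could move no fold or list median by more. The count of genes at least 2-fold higher was 0 in culture with 32 added, where the log2 fold of Folr1 was 0.99, and 0 at a threshold of 3-fold in each of the 4 comparisons. At 1.5-fold it was 3 between the CORIN- populations of both sources. Of the recomputed list medians, 175 kept within that spread and 5 did not, all 5 with only genes above the median signal: receptors and endocytic partners at 1.28 in place of 0.007 in the fetus and 0.64 in place of 0.096 between the CORIN+ populations of both sources, folate retention at 0.36 in place of -0.17 in culture and 0.63 in place of 0.25 between the CORIN+ populations, and the 39 other pathway genes at 0.42 in place of 0.11 between the CORIN- populations. Mitochondrial enzymes changed sign under this filter within that spread, to 0.031 in culture and -0.005 in the fetus. No paired analysis was possible because each population has 1 array. Whether a probe was above background is not known here, so the folds and ranks of dim genes, among them Folr2 in fetal CORIN- cells and most macrophage genes in culture, carry that limit.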
